A study of Mus musculus with 9 samples.

Results

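The 10 genes described here encode nonclassical major histocompatibility complex (MHC) class I molecules and were taken by symbol from the deposited table. They are H2-Q4, H2-Q6, H2-Q7, H2-T22, H2-T23, H2-T24, H2-M2, H2-M3, Cd1d1 and Mr1. All 10 were found, each in 1 of the 45535 rows that carry a symbol. All 10 passed the filter on low values, a mean normalized read count of at least 10 over all samples, as did 18202 genes in all. RNA was sequenced from lung cells pulled out on magnetic beads by CD103, an integrin carried by type 1 conventional dendritic cells (cDC1). All mice were labelled C57/BL6j and had received bleomycin, a drug that injures the lung and leads to fibrosis, for 7 days. The pre-culture group (5 samples, "before culture") was taken directly after isolation. The post-culture group (4 samples, "after culture") was kept for 18 h in RPMI with serum and antibiotics. Both groups came from bleomycin-treated lungs, and no untreated lung and no cultured cell of another kind entered the comparison. Whether each sample came from 1 mouse or from a pool is not labelled, so p-values measure the spread between these samples, which may be partly technical.

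Class I molecules are heavy chains that fold with the light chain beta-2-microglobulin. The classical chains H2-K1 and H2-D1 show varied peptides to CD8 T cells. The nonclassical chains vary little between individuals, and several of them present a narrow set of ligands or engage receptors of innate-like lymphocytes and NK cells. H2-T23 encodes Qa-1, a ligand of the CD94-NKG2A receptor. H2-Q6 and H2-Q7 belong to the Qa-2 genes. H2-T22 is recognized by some gamma-delta T cells. H2-M3 presents formylated peptides. CD1d, the product of Cd1d1, presents lipids to NKT cells, and MR1 presents vitamin B metabolites to MAIT cells.

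Some of these genes are close copies of each other or of other class I genes, which bears on the counts of those genes. Between H2-Q6 and H2-Q7, 930 of 974 aligned coding bases were identical (95.5%), and between Cd1d1 and its neighbour Cd1d2, 972 of 1005 (96.7%). The first 90 coding bases of both pairs are shown from the GENCODE M21 transcripts, with capitals at the bases that differ within a pair. They are an example of a stretch with few differences and do not stand for the whole transcript.
H2-Q6: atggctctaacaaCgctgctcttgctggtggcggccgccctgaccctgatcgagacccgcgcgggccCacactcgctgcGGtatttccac
H2-Q7: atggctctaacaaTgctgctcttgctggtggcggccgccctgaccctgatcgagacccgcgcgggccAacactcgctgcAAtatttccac
Cd1d1: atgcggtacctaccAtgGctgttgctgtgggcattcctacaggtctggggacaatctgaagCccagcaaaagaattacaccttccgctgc
Cd1d2: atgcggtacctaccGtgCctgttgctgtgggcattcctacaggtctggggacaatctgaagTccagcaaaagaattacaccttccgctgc
There are 4 differing bases in the first stretch and 3 in the second. Of all 50-base windows of the longest protein-coding transcript, the share also present in transcripts of other genes was 44.7% for H2-T22 (37.9% with H2-T10), 39.2% for H2-Q4, 35.0% for H2-Q6 (13.95% with H2-Q7), 34.9% for H2-Q7 (19.3% with H2-Q6), 29.8% for H2-T23 and 25.8% for Cd1d1 (with Cd1d2 only). It was 3.24% for H2-T24, 1.67% for H2-M2, 0.576% for H2-M3 and 0 for Mr1. With 100-base windows the share ran from 7.28% (H2-T23) to 16.4% (H2-Q7) for the first 6 genes. The counts of the first 6 genes are therefore uncertain to the extent that the authors' counting split reads between copies. H2-Q8 and H2-Q9, other Qa-2 genes, have no row in the table.

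Between the groups, 8 of the 10 genes rose after culture, 1 fell and 1 did not pass the test (limma on log2(normalized count + 1), Benjamini-Hochberg adjusted p under 0.05 over all genes tested). Over all genes tested, 34.2% were called higher and 34.6% lower, 68.8% in all. The members' median log2 fold change was 0.65, where the median of all tested genes was 0.0065. In 9 of the 10 genes the groups did not overlap, which was so for 57.3% of all genes tested. The rise was at least 2-fold in the group means for Cd1d1 alone, where 14.1% of all genes tested were called higher with such a ratio. In bulk RNA, fewer cells of a type and less RNA per cell cannot be told apart. Members were covered by 40 to 12553 reads per sample. H2-M2, with 40 to 294 reads, was the most thinly read.

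**Figure D1:**
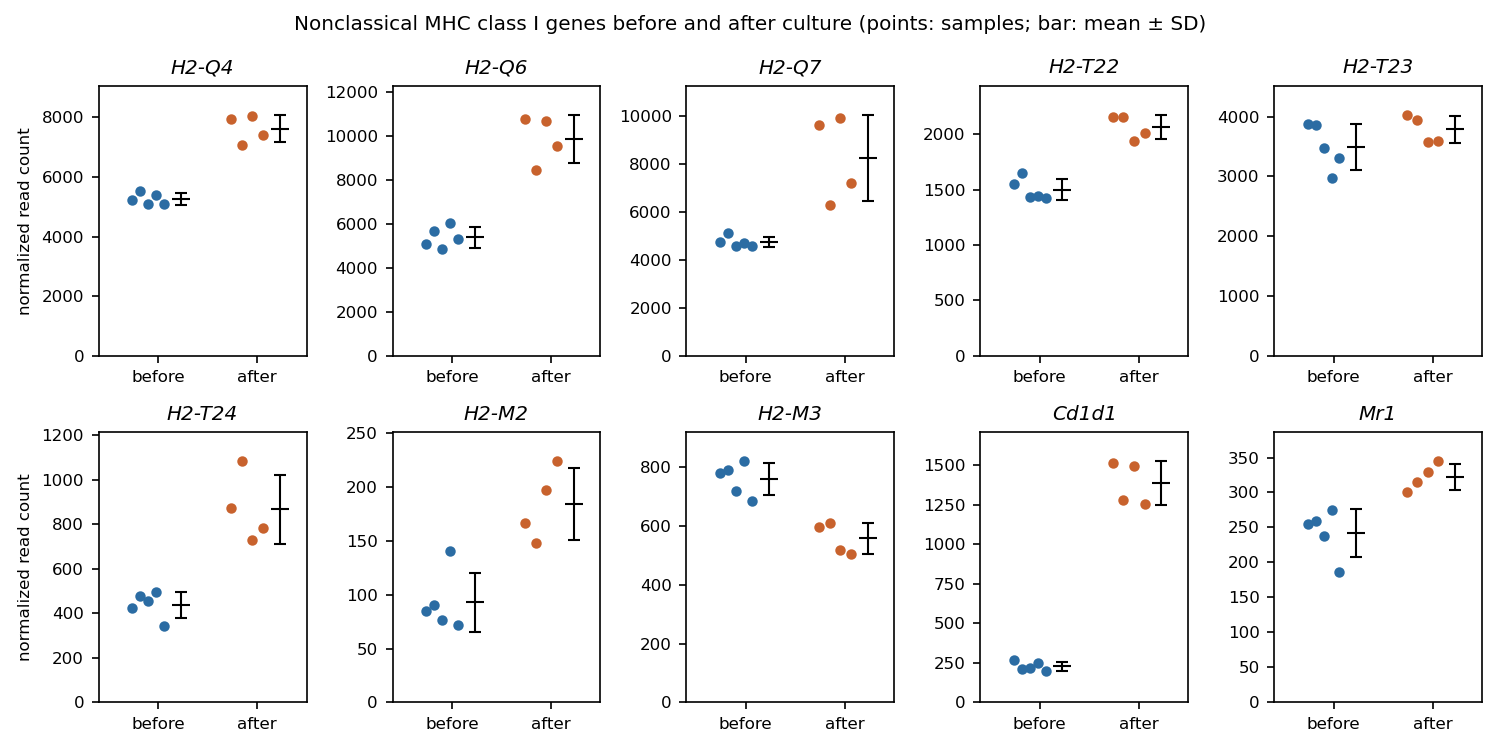
Normalized read counts of the 10 genes in each sample (y axis, from 0), with the 5 samples before culture in blue and the 4 after culture in orange; the black bar is the mean with its SD. H2-T23 is the gene whose groups overlap, and Cd1d1 has the widest gap, with 199 to 266 before and 1255 to 1515 after culture.

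Cd1d1 rose the most of the 10. The gene lies on the minus strand at chr3:86995834-86999441 (GRCm38). Its normalized counts were 266, 212, 217, 249 and 199 in replicates 1 to 5 before culture, and 1515, 1282, 1493 and 1255 in replicates 1 to 4 after culture. Every cultured sample was thus far above every uncultured one. The means were 228 ± 27.8 (SD, n = 5) and 1386 ± 137 (SD, n = 4), a 6.08-fold rise (log2 fold change 2.60 ± 0.107, SE, adjusted p = 1.85e-10 by limma). Its close copy Cd1d2, annotated as a polymorphic pseudogene in GENCODE M21, was read at 0 to 3.81 before and 6.84 to 60.1 after culture. Adding the copies gave 230 ± 28.7 and 1418 ± 156 (SD, n = 5 and n = 4), and Cd1d2 made up at most 3.87% of this sum in any sample. Among 11776 other genes with a mean of at least 100, the one whose centred log2 values lay nearest to those of Cd1d1 over the 9 samples was Ccr7, the chemokine receptor of migrating dendritic cells, with a root mean square difference of 0.133. Ccr7 went from 7918 ± 372 to 53005 ± 2238 (SD, n = 5 and n = 4). B cells can also carry CD1d. Of 10 B cell markers, 2 were higher and 3 lower, where 34.2% of all tested genes were higher and 34.6% lower. The summed count of these markers was 9893 to 14487 before and 8076 to 10800 after culture. Their part in the Cd1d1 result was not tested.

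The other lipid- and metabolite-presenting gene, Mr1, rose by less. It lies on the minus strand at chr1:155127277-155146814. Its counts were 255, 259, 238, 275 and 186 before culture and 301, 315, 329 and 344 after culture. All 4 cultured samples were above all 5 uncultured ones, although the highest uncultured sample, replicate 4, was close to the lowest cultured one. The means were 243 ± 34.3 and 322 ± 18.6 (SD, n = 5 and n = 4), a ratio of 1.33 (log2 fold change 0.42 ± 0.122, SE, adjusted p = 0.00777 by limma). This call was lost when the smooth trend of log2 values over transcript GC content and length was removed in each sample (log2 fold change 0.21, limma adjusted p = 0.116).

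The 3 Q-region members rose. H2-Q4 (chr17:35379617-35385290), H2-Q6 (chr17:35424850-35430055) and H2-Q7 (chr17:35439155-35443773) lie in this order on the plus strand. H2-Q4 had counts of 5220, 5536, 5105, 5399 and 5091 before culture and 7951, 7089, 8060 and 7410 after culture. Its groups did not overlap, and its means of 5270 ± 193 and 7627 ± 458 (SD, n = 5 and n = 4) differ by a ratio of 1.45 (log2 fold change 0.53 ± 0.067, SE, adjusted p = 1.00e-05 by limma). H2-Q6 had 5084, 5705, 4881, 6072 and 5314 before and 10800, 8476, 10698 and 9543 after culture. Its means were 5411 ± 480 and 9879 ± 1096 (SD, n = 5 and n = 4), 1.83-fold higher after culture (log2 fold change 0.87 ± 0.0913, SE, adjusted p = 1.84e-06 by limma). H2-Q7 had 4742, 5139, 4575, 4728 and 4604 before and 9639, 6286, 9925 and 7218 after culture. The cultured samples of H2-Q7 differed more among themselves, since replicates 2 and 4 lay well below replicates 1 and 3. Its means were 4758 ± 226 and 8267 ± 1794 (SD, n = 5 and n = 4), 1.74-fold higher (log2 fold change 0.77 ± 0.121, SE, adjusted p = 7.19e-05 by limma).

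Reads that fit H2-Q6 and H2-Q7 alike could fall to either, and their sum is free of that split only. Of the 50-base windows of H2-Q6, 12.3% were also in H2-Q4. Of those of H2-Q7, 15.2% were also in H2-Q5, which is not a member. H2-Q8 and H2-Q9 had no row to add to the sum. The sum was 10169 ± 621 in uncultured samples (SD, n = 5) and 18146 ± 2873 in cultured ones (SD, n = 4), 1.79 times as high, and H2-Q6 held 51.6 to 56.2% of it before and 51.9 to 57.4% after culture. The division between the copies thus overlapped between the groups. H2-Q4, H2-Q6 and H2-Q7 made up 67.5 to 71.7% of the reads of the 10 genes before and 69.6 to 76.5% after culture.

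Of the 3 T-region members, 2 rose and 1 did not pass the test. H2-T24 (chr17:36005695-36020560), H2-T23 (chr17:36029773-36032855) and H2-T22 (chr17:36037128-36042747) are neighbours on the minus strand. H2-T24 had counts of 423, 478, 453, 495 and 344 before and 874, 1082, 728 and 782 after culture. All cultured samples were higher, with replicate 2 the highest, and the means were 438 ± 59.5 and 866 ± 156 (SD, n = 5 and n = 4), 1.98-fold apart (log2 fold change 0.98 ± 0.131, SE, adjusted p = 1.84e-05 by limma). H2-T22 had 1549, 1651, 1437, 1441 and 1423 before and 2159, 2155, 1943 and 2008 after culture. Its groups were tight and separate, at 1500 ± 98.1 and 2066 ± 108 (SD, n = 5 and n = 4), a ratio of 1.38 (log2 fold change 0.46 ± 0.0722, SE, adjusted p = 7.17e-05 by limma). Its near copy H2-T10 is annotated as a polymorphic pseudogene in GENCODE M21. H2-T10 did not pass the test (303 ± 34.2 against 265 ± 52.2, SD, n = 5 and n = 4, log2 fold change −0.20, limma adjusted p = 0.213). With both summed the ratio was 1.29, and the share of H2-T10 in the sum was 14.7 to 18.5% before and 9.43 to 13.6% after culture.

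H2-T23, the Qa-1 gene, was the member that did not pass. Its counts were 3883, 3856, 3478, 2974 and 3303 before and 4027, 3938, 3581 and 3592 after culture. The groups overlapped, and replicate 4 before culture was the lowest of all 9 samples. The means were 3499 ± 384 and 3785 ± 231 (SD, n = 5 and n = 4), and the log2 fold change was 0.12 ± 0.0871 (SE), with an adjusted p of 0.242 by limma. The 95% interval of this difference runs from 0.953-fold to 1.24-fold, so a rise of the size seen in H2-Q4 lies outside it. After removal of the GC and length trend the gene was called higher (log2 fold change 0.43, limma adjusted p = 1.57e-04). The gene nearest to H2-T23 in its pattern over the 9 samples was the classical chain H2-K1, with a root mean square difference of 0.0288 (log2), the smallest such distance among the 10 members' nearest genes.

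The M-region members H2-M2 and H2-M3 moved in opposite directions. H2-M2 (chr17:37480851-37483552, minus strand) had counts of 84.7, 90.3, 76.3, 141 and 71.6 before and 166, 148, 197 and 224 after culture. Replicate 4 stood above the other uncultured samples and just below the lowest cultured sample. The means were 92.7 ± 27.7 and 184 ± 33.5 (SD, n = 5 and n = 4), 1.98-fold higher after culture (log2 fold change 1.00 ± 0.2005, SE, adjusted p = 5.63e-04 by limma). H2-M3 (chr17:37270220-37274484, plus strand) was the 1 member that fell. It had 779, 788, 719, 819 and 686 before and 595, 611, 518 and 504 after culture. No cultured sample reached the lowest uncultured one. The means were 758 ± 54.3 and 557 ± 54.0 (SD, n = 5 and n = 4), 1.36-fold lower (log2 fold change −0.45 ± 0.0905, SE, adjusted p = 6.38e-04 by limma). Of its windows 0.576% are shared, so this fall is little exposed to the splitting of reads.

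**Figure D2:**
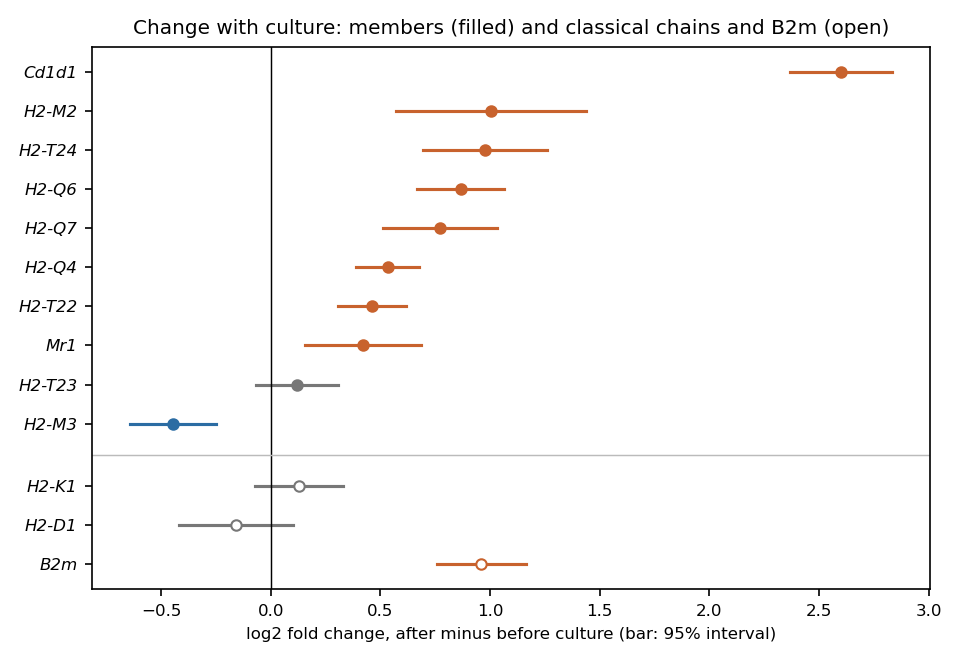
Log2 fold change of each gene, after minus before culture (x axis), with its 95% interval from limma; filled points are the 10 members and open points H2-K1, H2-D1 and B2m, in orange where higher, blue where lower and grey where the test was not passed. Cd1d1 stands at 2.60, 7 members lie between 0.42 and 1.00, H2-T23 is at 0.12 and H2-M3 at −0.45.

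The classical chains give the scale for these changes. H2-K1 (21915 ± 2171 against 23916 ± 1691, SD, n = 5 and n = 4) had a log2 fold change of 0.13 (limma adjusted p = 0.229) and H2-D1 (28763 ± 4217 against 25615 ± 2594, SD, n = 5 and n = 4) one of −0.16 (limma adjusted p = 0.258). Without replicate 4 before culture, whose H2-D1 count of 21425 was below the 29214 to 31933 of the other uncultured samples, H2-D1 was called lower (log2 fold change −0.26, limma adjusted p = 0.0174). H2-K1 was called higher with upper quartile scaling (log2 fold change 0.24, limma adjusted p = 0.0263). The summed counts of the 10 members were 0.444 ± 0.0676 of the summed counts of H2-K1 and H2-D1 before culture and 0.711 ± 0.105 after culture (SD, n = 5 and n = 4). Every cultured sample had a higher ratio, from 0.595 to 0.848, than every uncultured sample. Replicate 4 before culture had a ratio of 0.564 and the other uncultured samples 0.401 to 0.427. The light chain gene B2m rose from 45492 ± 2850 to 88512 ± 6045 (SD, n = 5 and n = 4, log2 fold change 0.96, limma adjusted p = 8.43e-07). Set against all 12 heavy chains together, B2m counts went from 0.627 ± 0.0508 to 1.05 ± 0.0970 (SD, n = 5 and n = 4), without overlap.

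Per kilobase of transcript, which allows levels to be compared between genes, the members spanned a wide range. Before culture H2-Q7 (3124 ± 148 normalized counts per kilobase), H2-Q4 (2939 ± 108), H2-Q6 (2595 ± 230) and H2-T23 (2377 ± 261) led (SD, n = 5), and each overlapped with the next. H2-T22 (852 ± 55.7), H2-M3 (527 ± 37.7) and H2-T24 (201 ± 27.3) followed, each separate from its neighbours. Cd1d1 (117 ± 14.3), Mr1 (96.6 ± 13.6) and H2-M2 (59.8 ± 17.9) came last, and neighbours among these overlapped. After culture the order began with H2-Q7 (5428 ± 1178 per kilobase), H2-Q6 (4738 ± 525) and H2-Q4 (4254 ± 255), which overlapped, and then H2-T23 (2571 ± 157), now separate from them (SD, n = 4). H2-T22 stood at 1173 ± 61.2 and Cd1d1 at 712 ± 70.2, so Cd1d1 had moved from rank 8 to rank 6. H2-T24 (397 ± 71.4) and H2-M3 (387 ± 37.5) overlapped, as did Mr1 (128 ± 7.42) and H2-M2 (119 ± 21.6). With the coding length in place of the transcript length, H2-Q6 led in both groups and Cd1d1 moved from rank 9 to rank 6. The classical chains were above all 10 members, at 13536 ± 1341 per kilobase for H2-K1 and 13683 ± 2006 for H2-D1 before culture (SD, n = 5).

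**Figure D3:**
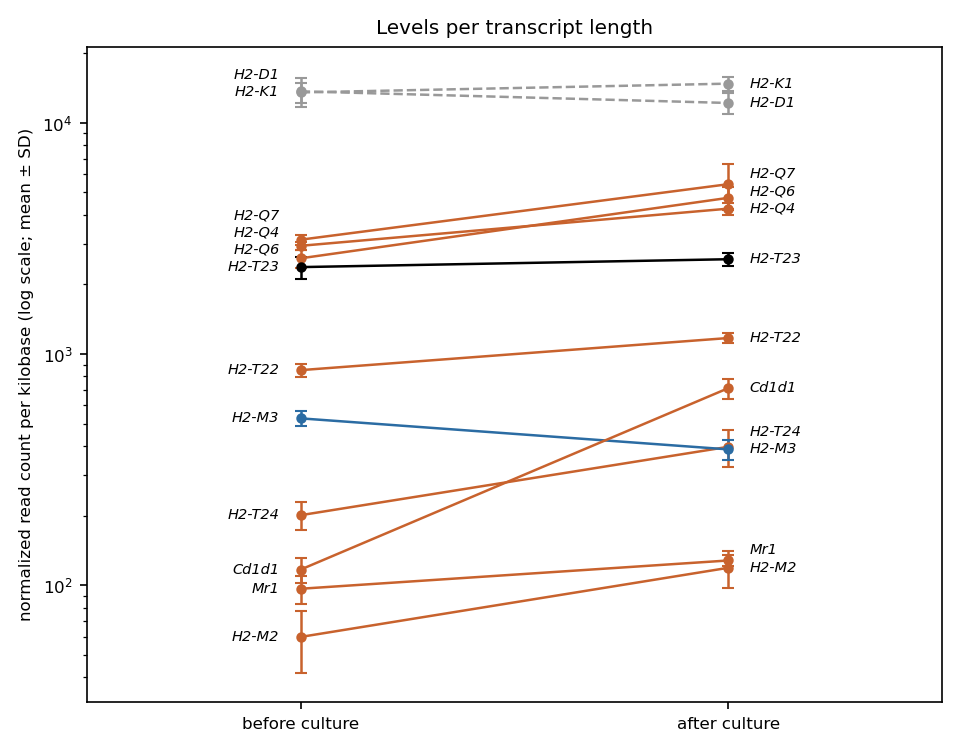
Mean normalized read count per kilobase of the longest protein-coding transcript, with SD, before and after culture (y axis, log scale), in orange for members that rose, blue for the one that fell, black for H2-T23 and dashed grey for the classical chains. The line of Cd1d1 crosses those of H2-T24 and H2-M3, from 117 to 712 per kilobase.

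Of the 10 genes, 6 have a GC content above the median of tested genes. Removal of a joint trend over GC content and length changed the values of most of them, less so for H2-M3. Transcript GC content was 57.2% for H2-Q7, 55.8% for H2-Q4, 54.9% for H2-Q6, 53.9% for H2-T23, 56.3% for H2-K1 and 55.9% for H2-D1, against a median of 49.7% over tested genes and 44.3% for Mr1. With the trend over GC content and length removed sample by sample, the log2 fold change was 0.97 for H2-Q4, 1.28 for H2-Q6, 1.25 for H2-Q7 and 0.67 for H2-T22. It was 0.58 for H2-K1 (limma adjusted p = 1.23e-05) and 0.30 for H2-D1 (limma adjusted p = 0.0143), both then called higher. The median of all genes was 0.133 in that fit. H2-T24 (1.05), H2-M2 (0.95), Cd1d1 (2.58) and H2-M3 (−0.29) were closer to their values without the correction. Whether the trend is technical or follows from the genes that changed was not tested.

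**Figure D4:**
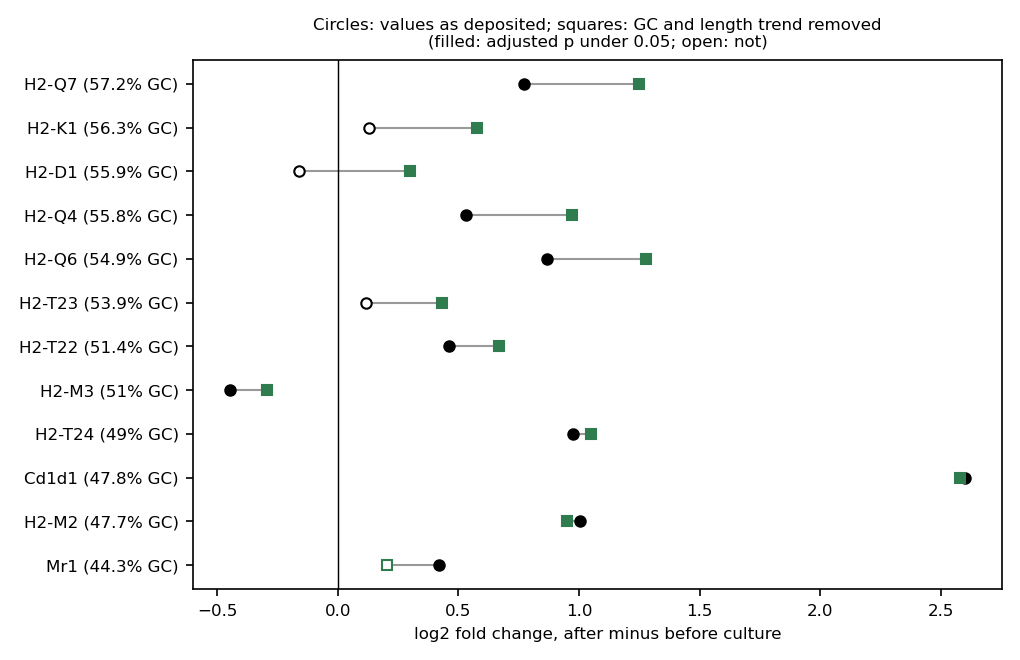
Log2 fold change, after minus before culture (x axis), of the 10 members and the classical chains, ordered by transcript GC content; circles are values as deposited, squares values with the GC and length trend removed, and filled marks have an adjusted p under 0.05. The genes of higher GC content shift to the right, among them H2-T23 from 0.12 to 0.43, while Mr1 shifts to the left, from 0.42 to 0.21.

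Promoters of 8 of the 10 genes were in the RefSeq table (GRCm38.p6, from 250 bases before to 50 after the start). H2-T24 and Cd1d1 were not matched. A set of 4 motifs was searched on both strands. A strict pattern of the interferon-stimulated response element was searched, GAAA and GAAA with any 2 bases between them. It was found in 2 of the 8 (H2-T22 and H2-T23) and in 3.45% of all 32544 promoters of this length. Looser forms of the element were not searched, so a promoter without a match may still hold one. TGACG, the core of the X2 box of class I promoters, was found in 5 of the 8 (20.9% of all), CCAAT, the core of the Y box, in 7 of the 8 (37.4%), and an NF-kB-like motif, GGGA and CC with any 4 bases between them, in 6 of the 8 (20.8%). Mr1 held none of the 4. TGACG lay 64 bases before the start in H2-Q7, 46 in H2-M3, 73 in H2-Q4 and 22 in H2-T22. In H2-M2 it lay 236 bases before the start and on the other strand. A TGACG match at such varied places need not be an X2 box. The 220 bases before the start are shown for the near-identical H2-Q6 and H2-Q7, which rose alike, for H2-T23, which did not pass the test, and for H2-M3, which fell. They are printed 5′ to 3′ on the gene's strand with motif matches in capitals, overlapping matches run together.
H2-Q6, chr17:35424630-35424849, plus strand: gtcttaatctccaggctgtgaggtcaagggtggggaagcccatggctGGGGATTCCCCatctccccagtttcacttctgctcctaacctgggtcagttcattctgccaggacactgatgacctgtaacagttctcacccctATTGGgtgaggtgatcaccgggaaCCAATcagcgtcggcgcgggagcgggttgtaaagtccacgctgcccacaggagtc
H2-Q7, chr17:35438935-35439154, plus strand: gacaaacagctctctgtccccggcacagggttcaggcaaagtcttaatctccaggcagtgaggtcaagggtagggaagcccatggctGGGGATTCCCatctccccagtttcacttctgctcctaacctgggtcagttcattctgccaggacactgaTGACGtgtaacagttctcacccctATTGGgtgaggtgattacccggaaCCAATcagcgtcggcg
H2-T23, chr17:36032702-36032921, minus strand: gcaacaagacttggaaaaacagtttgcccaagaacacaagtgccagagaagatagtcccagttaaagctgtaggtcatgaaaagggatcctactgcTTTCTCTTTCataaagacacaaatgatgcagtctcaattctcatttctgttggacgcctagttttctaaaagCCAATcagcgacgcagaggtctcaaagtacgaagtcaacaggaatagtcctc
H2-M3, chr17:37270014-37270233, plus strand: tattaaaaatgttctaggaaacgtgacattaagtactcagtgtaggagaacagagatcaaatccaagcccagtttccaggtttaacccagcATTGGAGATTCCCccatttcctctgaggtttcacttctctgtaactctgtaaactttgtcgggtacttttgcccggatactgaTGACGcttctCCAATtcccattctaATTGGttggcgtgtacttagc
The promoters of H2-Q6 and H2-Q7 were identical at 254 of 260 aligned bases (97.7%), but their annotated starts are not at the same place, with the first Y box core 79 bases before the start in H2-Q6 and 40 in H2-Q7. TGACG was found in H2-Q7 and not in H2-Q6. H2-M3, the gene that fell, held the X2 box core, the Y box core and the NF-kB-like motif, as did H2-Q7, which rose. Whether these letters bear on the direction of change was not tested. A match is a description of the sequence and not a bound site.

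Of 14 genes that assemble class I molecules or supply their peptides, 9 were higher, 0 lower and 5 did not pass, with a median log2 fold change of 0.40 (34.2% of all tested genes were higher). Beside B2m they included Psme2, a subunit of the proteasome activator PA28 (2233 ± 174 against 6641 ± 419, SD, n = 5 and n = 4), and Tapbpl, which encodes the peptide editor TAPBPR (1082 ± 96.3 against 2148 ± 176). Of 14 transcription regulators of class I genes, 5 were higher and 4 lower (median 0.11), shares close to the 34.2% and 34.6% of all tested genes. With the GC and length trend removed, 10 were called higher. Relb, an NF-kB subunit, rose from 3025 ± 221 to 10029 ± 739 (SD, n = 5 and n = 4). Nlrc5, the transactivator of class I genes, named for this role and not by the rule for named genes, rose from 4908 ± 366 to 8685 ± 995. Ciita, its class II counterpart, fell from 9578 ± 1147 to 1525 ± 245, and Irf8, a cDC1 factor, from 18457 ± 1783 to 8465 ± 404. Of 20 interferon-induced genes, 10 were higher and 3 lower (median 0.44). Gbp5 (561 ± 28.8 against 7334 ± 1121) and Gbp2 (1038 ± 135 against 10366 ± 343), both interferon-induced GTPases, were among the higher ones. Cxcl9 (552 ± 53.1 against 11.6 ± 4.42) and Cxcl10 (814 ± 106 against 113 ± 24.6), chemokines induced by interferon, were among the lower ones.

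Of 14 tested genes of lipid loading and of MR1 and CD1d trafficking, 5 were higher and 5 lower, again near the 34.2% and 34.6% of all genes. The higher count was 8 with upper quartile scaling and 8 with the GC and length trend removed. Npc2, a lysosomal lipid carrier, rose from 7173 ± 769 to 19523 ± 2602 (SD, n = 5 and n = 4). Gm2a, the GM2 activator that can load lipids on CD1d, fell from 26400 ± 1356 to 7897 ± 1665, and Cd74, the invariant chain, from 301520 ± 56973 to 46660 ± 6593. Psap, the saposin precursor (147412 ± 18159 against 186706 ± 49533, limma adjusted p = 0.142), and Mttp, a lipid transfer protein (81.4 ± 6.23 against 65.8 ± 7.40, limma adjusted p = 0.0934), both named for their role and not by the rule, did not pass the test (limma over 5 and 4 samples).

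**Figure D5:**
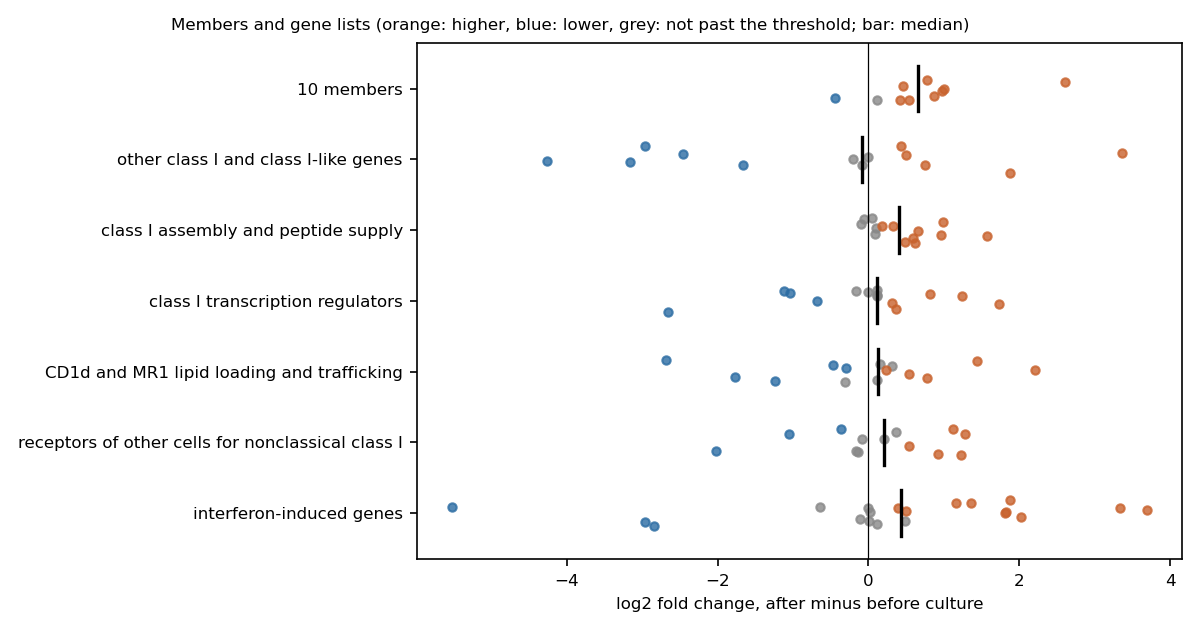
Log2 fold change, after minus before culture (x axis), of each tested gene of the 10 members and of 6 gene lists; orange points were called higher, blue lower and grey neither, and the black bar is the median of the list. The members' median is 0.65, that of class I assembly genes 0.40, and that of other class I and class I-like genes −0.09.

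Other class I and class I-like genes were not moved in 1 direction. Of 33 listed, 28 had a row and 13 were tested, of which 5 were higher and 5 lower. These counts are near the 34.2% higher and 34.6% lower of all tested genes. H2-Q10, a secreted class I chain known from liver, fell from 220 ± 59.8 to 24.7 ± 10.27 (SD, n = 5 and n = 4, log2 fold change −3.16, limma adjusted p = 3.25e-07), although it is also a Q-region gene. Fcgrt, the heavy chain of the neonatal Fc receptor, fell 7.84-fold (2964 ± 349 against 378 ± 33.2), and Hfe, which acts in iron sensing, fell 3.13-fold (1261 ± 126 against 403 ± 91.4). H2-M5 (29.3 ± 8.07 against 1.14 ± 2.27, and 0 in 3 of the 4 cultured samples) and Mill2 (44.6 ± 9.02 against 8.11 ± 4.19) were the other lower genes. The higher ones were Procr, the endothelial protein C receptor (698 ± 125 against 978 ± 140), the annotated polymorphic pseudogene Cd1d2, and the NKG2D ligands Raet1e (13.1 ± 6.19 against 47.4 ± 12.0), Ulbp1 (210.5 ± 26.4 against 284 ± 29.97) and H60b (162 ± 36.9 against 270 ± 43.4). For Procr, Ulbp1 and H60b the groups overlapped. Of the 50-base windows, 40.7% of Cd1d2 were also in Cd1d1, and 38.9% of Raet1e were also in Raet1d. The calls of Cd1d2 and Raet1e thus depend on how reads were split between copies. Before culture Cd1d2 had 0 to 4 reads per sample and Raet1e 3 to 23.

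The preparations also held cells that can bear receptors for these molecules. Of 13 tested genes for such receptors and their lymphocytes, 5 were higher and 3 lower (5 lower with the GC and length trend removed). Over all tested genes, 34.2% were higher and 34.6% lower. Trgc1, a gamma-chain constant gene of gamma-delta T cells, rose from 160 ± 28.1 to 378 ± 90.0 (SD, n = 5 and n = 4). Pirb, an inhibitory class I receptor of myeloid and B cells, rose from 5175 ± 370 to 12627 ± 1479. Zbtb16, the factor of NKT and other innate-like T cells, fell from 693 ± 78.4 to 333 ± 45.3, and Klrb1c, the NK1.1 gene, from 177 ± 69.2 to 42.7 ± 15.6.

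The labelled cell type was checked against its markers, and other cell types were read too. The counts below compare with 34.2% of all tested genes called higher and 34.6% called lower. All 11 cDC1 markers were read in both groups, with 3 higher and 8 lower after culture and a median log2 fold change of −3.12. Their summed count was 143423 to 172698 before and 32451 to 36273 after culture. The 3 higher ones were Flt3 (8170 ± 638 against 13082 ± 1987, SD, n = 5 and n = 4), Batf3 (511 ± 95.35 against 746 ± 96.4) and Zbtb46 (2380 ± 144 against 2868 ± 352). Xcr1, a chemokine receptor of cDC1, fell from 5836 ± 781 to 114 ± 32.5, Clec9a, a receptor for dead cells, from 2756 ± 286 to 315 ± 27.8, and Wdfy4, which acts in cross-presentation, from 75717 ± 6275 to 4761 ± 811 (SD, n = 5 and n = 4). Itgae, the CD103 gene, named as the marker of the isolation and not by the rule, fell from 18138 ± 1537 to 1727 ± 335 (SD, n = 5 and n = 4). All 10 markers of mature dendritic cells were higher, and their summed count was 49541 to 53552 before and 239385 to 268319 after culture. Markers of other cells fell in most lists. All 7 tested neutrophil markers were lower (summed count 14298 to 25015 before and 932 to 1902 after culture, with Ly6g at 0 in all cultured samples), as were all 9 endothelial (25960 to 37537 and 3349 to 4448) and all 8 fibroblast markers (17234 to 30959 and 2454 to 4804). Epithelial markers were lower in 7 of 9 (25935 to 42810 and 4773 to 8667), NK cell markers in 7 of 8 (1864 to 3720 and 467 to 717) and macrophage and monocyte markers in 6 of 11, with 1 higher (45553 to 63914 and 23371 to 38828). Of 10 T cell markers, 2 were higher and 3 lower (10774 to 13078 and 13246 to 17542). Within that sum Tcf7, a T cell transcription factor, rose (3419 ± 245 against 7759 ± 893, SD, n = 5 and n = 4), while Trac, the T cell receptor alpha constant gene (1149 ± 129.5 against 854 ± 61.0), and Cd5 (652 ± 24.4 against 412 ± 28.9) fell. Class I genes are expressed in most of these cells, and the part of these shifts in the members' changes was not tested. Sequencing depth was 14.7M to 28.8M reads (M, 1e6 reads) in named rows before and 26.0M to 35.3M after culture.

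For the remaining members, the genes with the nearest pattern were Nvl for H2-Q4 (root mean square difference 0.0508, log2), Sdr39u1 for H2-Q6 (0.0618), Cbx7 for H2-Q7 (0.0969), Frmd4a for H2-T22 (0.0391), Plpp3 for H2-T24 (0.0620), Klri1 for H2-M2 (0.105), Coq6 for H2-M3 (0.0659) and Nbdy for Mr1 (0.0718), each over the 9 samples. No member's nearest gene was another class I gene except for H2-T23, among the 11776 genes searched, which left out the members themselves. These distances describe the 9 samples and carry no test.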

How the data were processed

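The table the authors deposited holds normalized counts, a non-negative signal for each gene in each of 9 samples. DESeq2 and the build GRCm38 are named in the submitters' processing notes, without their role. The aligner, counter, strandedness and annotation are not given in the sources used here. Divided by the value of a single read in its sample, 100% of values came out whole (relative tolerance 1e-06), and these recovered reads were used for count tests. The 3782 rows without a symbol held 6.43 to 10.9% of reads before and 3.87 to 5.46% after culture and were left out. Genes with a mean of at least 10 were tested two-sided between groups, without covariates, on log2(value + 1) by limma 3.58.1 (R 4.3.3) with a mean-variance trend, and p-values were adjusted by Benjamini-Hochberg over 18202 genes, with a threshold of 0.05. A ratio is one of group means of normalized counts, and a log2 fold change is on the log2(value + 1) scale, which understates changes of low genes. On the recovered reads, edgeR 4.0.16 (quasi-likelihood test) called 6184 genes higher and 6378 lower, and DESeq2 1.42.0 called 6293 and 6370. Other alternatives were the pseudocount, the filter, the scaling, a replicate block, removal of a GC and length trend (spline fit per sample, 96.5% of tested genes) and leaving out each replicate. Fits were tested on simulated data. Positions, lengths, GC content and shared windows came from GENCODE M21 (GRCm38), although the authors may have used another annotation. Coding sequences and promoters were aligned globally with Biopython 1.88, and coding identity stands in for the planned protein identity. Coding length as an alternative for levels was chosen after seeing the data. The members and gene lists were chosen with earlier results of these data known. Genes named are the members, their relatives, H2-K1, H2-D1, B2m, up to 3 genes per list with the smallest adjusted p, up to 2 called against most of their list, and for each member the gene of nearest pattern. Not every gene that meets this rule is printed. Among the list genes without a row were H2-Q8, H2-Q9, H2-T9, H2-T18, H2-T-ps, H2-L and Lilrb4a. Whether same-numbered samples deviate together was checked over all tested genes.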

Additional observations from a re-analysis of the deposited data

Results flagged for a closer look

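In a check of 32 groups of values (10 members, H2-K1, H2-D1, B2m and 3 sums, each before and after culture), 1 sample stood apart from the rest of its group in 2. Chance alone flags about 1 group in 20. Both were replicate 4 before culture. H2-M2 had a normalized count of 140.6 there, against 71.6 to 90.3 in the other uncultured samples, and the gap to its nearest neighbour was 0.729 of the group's range. H2-D1 had 21425 there, and the gap was 0.741 of the range. Without this sample the log2 fold change of H2-M2 was 1.16 (limma adjusted p = 3.18e-05). This sample also differed from the other uncultured samples outside the checked groups. For example, the epithelial marker Sftpc was 16826 in it and 4296 to 7467 in the others, and Cd74 was 210279 against 293126 to 363604. Rows without a symbol held 6.43% of its reads and 9.08 to 10.9% of theirs. The cause was not tested.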

How the results depend on the processing

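Over 12 alternatives with all samples and 9 fits that left out 1 replicate, 8 of the 10 members kept their direction and their side of the threshold. The exceptions were Mr1, lost when the GC and length trend was removed (0.206, limma adjusted p = 0.116), and H2-T23, called higher in that fit (0.433) and with upper quartile scaling (0.227, limma adjusted p = 0.0234). Upper quartile scaling moved the median of all genes to 0.114, and H2-T23 was 0.113 above that median. The cause was not tested. Removal of the GC and length trend also turned H2-D1 (0.299) and H2-T10 (0.0908) to a positive log2 fold change. Summing H2-T22 with H2-T10 moved its mean log2 difference from 0.462 to 0.372. The log2 fold change of H2-Q7 ran from 0.675 to 0.895 and that of Mr1 from 0.327 to 0.468 when 1 replicate was left out. Counts of gene lists that moved by over 1.5 times were those of class I regulators (10 higher with the GC and length trend removed), lipid loading genes (8 higher in that fit and with upper quartile scaling), receptor genes (5 lower in the GC and length fit), other class I genes (3 higher and 3 lower with a minimum mean of 50, which tests fewer genes) and the classical chains. The listing of 8 members higher and 1 lower was also found by edgeR and DESeq2. The split of all genes was 6225 higher and 6299 lower, against 7120 and 5579 with upper quartile scaling and 6982 and 4961 with the GC and length trend removed.

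The labels give both groups replicate numbers, in the titles and in the library names. Samples with the same title number did not deviate together (correlations of −0.213 to 0.0807 over 4 pairs). Those with the same library number had correlations of 0.0447 to 0.349, below 0.1 in 2 of 4 pairs. Each cultured sample correlated best with the uncultured sample of its own library number. A pairing by library number is therefore possible, but the labels do not state one. The main fit and its p-values treat the samples as unpaired. With the replicate block by title, 5761 genes were higher and 5885 lower, and with the block by library number 6390 and 6446. The members' count was 8 higher and 1 lower under each.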
